A study of Saccharomyces cerevisiae with 12 samples.

Results

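Ribonucleotide reductase and the genes that control it after DNA damage were examined as a set of 8 genes, found by their systematic names in a count table of 6691 genes. They are the large subunit genes *RNR1* (YER070W) and *RNR3* (YIL066C), the small subunit genes *RNR2* (YJL026W) and *RNR4* (YGR180C), the genes of the inhibitors *SML1* (YML058W) and *HUG1* (YML058W-A), the kinase gene *DUN1* (YDL101C) and the repressor gene *RFX1* (YLR176C), also known as *CRT1*. The study sequenced polyadenylated RNA of the budding yeast *Saccharomyces cerevisiae* in 12 libraries, 3 for each of 4 groups. *TRA1* cells and *tra1Q3* cells were compared as young cultures (day 0) and once aged to day 3 in stationary phase, the setting of chronological aging. Tra1 is the shared subunit of the SAGA and NuA4 complexes, which acetylate histones, and *tra1Q3* carries 3 arginine-to-glutamine changes in its PI3K domain.

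All 4 groups share the W303A background, mating type **a**, with the *ade2-1*, *can1-100* and *trp1-1* alleles as well as *leu2-3*, *his3-11* and *ura3-1*. In both strains the genomic *TRA1* locus holds a FLAG-tagged allele marked with *URA3* and *HIS3*, and both carry a *LEU2* plasmid that expresses *YHR100* from the *DED1* promoter. The labels name growth to mid-log phase in synthetic complete medium for every library, while the methods of the study describe cells grown to saturation and diluted into medium without leucine. The replicates are called biological, with no statement of whether they are separate isolates, so p-values measure the spread between these cultures. The replicates of aged *tra1Q3* cells are numbered 2, 3 and 4.

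Ribonucleotide reductase turns ribonucleotides into the deoxyribonucleotides needed for DNA replication and repair. Rnr1 is the main large subunit, Rnr3 is a second large subunit known for its induction by DNA damage, and Rnr2 and Rnr4 form the small subunit that holds the iron cofactor. When replication stalls or DNA is damaged, the kinases Mec1 and Rad53 activate Dun1, which leads to the destruction of the inhibitor Sml1 and to the release of the repressor Rfx1, with its corepressor Cyc8-Tup1, from the promoters of *RNR2*, *RNR3*, *RNR4* and *HUG1*. *RNR1* is instead known as a target of MBF, the factor that switches on genes at the start of S phase.

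Rfx1 binds the X box, of which GTTGCC (or GGCAAC on the other strand) is an arm, and MBF binds the MluI cell cycle box, ACGCGT. Both were searched on both strands in the 600 bases before each start codon, with sequence from RefSeq (assembly R64, the build of the count table). Of 6655 such windows, 16.8% held GTTGCC and 6.07% held ACGCGT, so that a single match is common. The whole X box, with both arms, was found in 0.225% of windows and in none of those of the 8 genes. These letters were absent as a whole, which says nothing about binding. The stretches below are shown because they hold most of the matches of the genes that Rfx1 and MBF are known to control. Capitals mark the matches, and each stretch reads in the direction of its gene.
RNR1, chrV:298450-298649, plus strand: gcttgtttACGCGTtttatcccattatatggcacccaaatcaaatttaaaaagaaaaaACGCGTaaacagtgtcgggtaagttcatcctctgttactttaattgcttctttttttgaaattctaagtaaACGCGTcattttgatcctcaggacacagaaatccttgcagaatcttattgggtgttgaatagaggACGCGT
RNR2, chrX:391924-392043, plus strand: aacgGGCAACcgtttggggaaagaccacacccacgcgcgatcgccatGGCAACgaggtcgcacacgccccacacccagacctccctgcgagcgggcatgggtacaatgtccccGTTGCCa
RNR3, chrIX:240889-240988, minus strand: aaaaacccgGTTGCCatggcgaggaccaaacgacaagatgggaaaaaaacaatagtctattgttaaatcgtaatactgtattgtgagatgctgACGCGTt
RNR4, chrVII:856662-856701, minus strand: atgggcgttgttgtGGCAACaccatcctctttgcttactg
HUG1, chrXIII:158530-158609, plus strand: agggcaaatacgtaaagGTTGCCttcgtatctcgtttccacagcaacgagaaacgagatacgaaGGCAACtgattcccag

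*RNR1* had 4 MluI boxes, at -492, -442, -371 and -306 from its start codon, and an X box arm at -169. *RNR2* had 3 X box arms, at -476, -433 and -367, and *HUG1* had arms at -213 and -166. *RNR4* had an arm at -386. *RNR3* held an arm at -271 and MluI boxes at -546 and -187, and *DUN1* had a MluI box at -163. No match of either motif was found before *SML1* or *RFX1*.

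**Figure D1:**
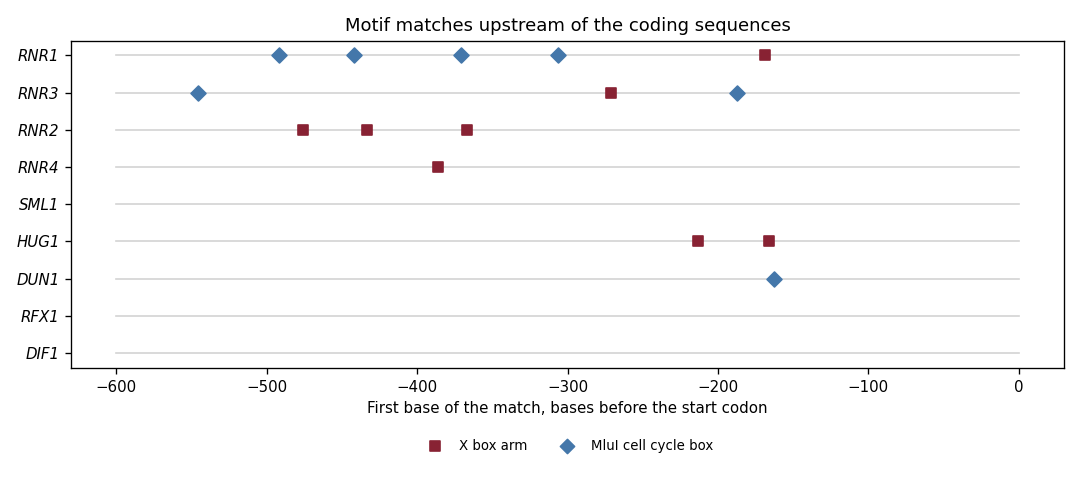
Matches of the X box arm (squares) and of the MluI cell cycle box (diamonds) in the 600 bases upstream of each coding sequence, plotted by the first base of the match in bases before the start codon. The 3 X box arms of *RNR2* and the 4 MluI boxes of *RNR1* stand out, and the lines of *SML1*, *RFX1* and *DIF1*, a gene of a further regulator of the enzyme, are empty.

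The coding sequences lie on 7 chromosomes, as the count table gives them. *RNR1* spans chrV:298950-301616, *RNR3* chrIX:238099-240708, *RNR2* chrX:392404-393603, *RNR4* chrVII:855264-856301, *DUN1* chrIV:280307-281848 and *RFX1* chrXII:507797-510232. *HUG1* (chrXIII:158760-158966) and *SML1* (chrXIII:159383-159697) are neighbors on the same strand, 416 bases apart. Only *RNR2* overlaps another coding sequence, that of YJL026C-A, which leaves 978 of its 1200 bases free, and reads in the overlap can be lost from its count. Counting ignored strand. All windows of 100 bases within the 8 coding sequences were found once in the genome, *RNR1* and *RNR3* included.

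Totals per library ran from 20662125 to 28079682 counts. The aged *TRA1* replicate 2 stood apart. The median chi-square ratio between its counts and those of a second replicate, where 1 stands for counting error alone, was 82.8 and 85.8, against 10.9 for the other pair of that group and 2.89 to 4.52 in the other groups. The ratio allowed only for library totals, so a shift that normalization removes also enters it. The normalization factor (TMM) was 1.22 for replicate 2 and 1.06 and 1.07 for replicates 1 and 3 of that group. In the **a** cells named by the labels, the summed level of 6 **a** mating type markers in CPM, the usual unit for a gene's share of the normalized counts of its library, was 1132 to 1209 in *TRA1* and 2557 to 2684 in *tra1Q3* cells at day 0, and 304 to 348 and 1250 to 1556 at day 3. The 4 markers of the opposite mating type, alpha, summed to 47.5 to 49.4 and 806 to 887 CPM at day 0, and to 110.5 to 128.8 and 451 to 552 CPM at day 3, with no marker at 0 in any library. At day 0 all 6 **a** markers and all 4 alpha markers were higher in *tra1Q3* cells, and at day 3 these were 6 of 6 and 3 of 4. The part of this in the results below was not tested. *TRA1* itself had 648 to 673 CPM in *TRA1* and 926 to 1001 CPM in *tra1Q3* cells at day 0, and 553 to 593 and 1771 to 1843 CPM at day 3.

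Levels of the 8 genes were first ordered within each group, as CPM per kilobase of coding length. In *TRA1* cells at day 0 *SML1* came first at 951 ± 33.1 (SD, n = 3 here and below), followed by *RNR4* at 357 ± 19.4, *RNR2* at 346 ± 12.9, *RNR1* at 99.4 ± 3.87, *DUN1* at 34.1 ± 1.62, *HUG1* at 15.6 ± 3.57, *RFX1* at 15.5 ± 0.605 and *RNR3* at 5.13 ± 0.347 CPM per kilobase. The libraries of *RNR4* and *RNR2* overlapped, as did those of *HUG1* and *RFX1*. Counted on the bases that *RNR2* shares with no other gene, its level was 424.9 ± 15.9 and thus above that of *RNR4*.

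By coding length, the order in *tra1Q3* cells at day 0 was that of *TRA1* cells, and no neighbors overlapped. On the bases it shares with no other gene, *RNR2* had 332 ± 10.7 and stayed below *RNR4* here, unlike in *TRA1* cells. *SML1* had 1411 ± 22.3, *RNR4* 486 ± 8.74, *RNR2* 270.3 ± 8.72 and *RNR1* 74.4 ± 3.54 CPM per kilobase. Below them came *DUN1* at 29.3 ± 0.675, *HUG1* at 21.7 ± 2.56, *RFX1* at 9.92 ± 1.03 and *RNR3* at 6.29 ± 0.370. *RNR3* was thus last of the 8 genes in both genotypes before aging.

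After aging *RNR1* was last in both genotypes. In aged *TRA1* cells *SML1* (941 ± 46.0 CPM per kilobase) was followed by *RNR2* (265 ± 60.6) and *RNR4* (214 ± 72.7), whose libraries overlapped. *RNR3* (15.6 ± 4.25), *DUN1* (14.7 ± 4.15) and *RFX1* (13.8 ± 1.21) overlapped too, and so did *HUG1* (9.02 ± 3.21) and *RNR1* (7.42 ± 1.09). In aged *tra1Q3* cells *SML1* stood at 4488 ± 213, *RNR4* at 496 ± 40.4 and *RNR2* at 210.2 ± 6.10 CPM per kilobase. There *HUG1* (25.1 ± 3.59) and *DUN1* (24.97 ± 1.26) overlapped, and *RFX1* (19.7 ± 0.208), *RNR3* (12.3 ± 0.203) and *RNR1* (4.71 ± 0.403) followed.

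**Figure D2:**
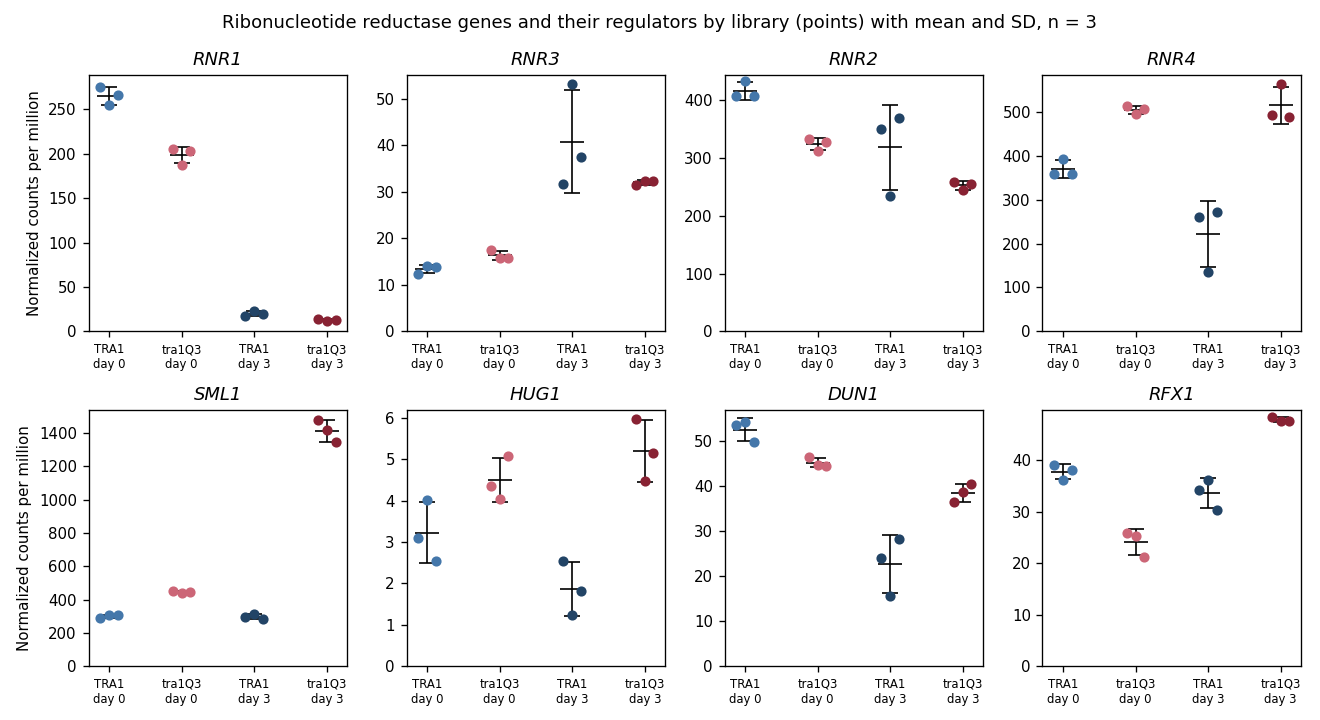
Normalized CPM of the 8 genes in each of the 12 libraries (points), with the mean and SD of each group (bars), on linear axes that start at 0. *RNR1* fell to 11.5 to 22.8 CPM at day 3 from 188 to 275 CPM at day 0, and *SML1* was at 1344 to 1478 CPM in aged *tra1Q3* cells alone, against 282 to 451 CPM in the other groups.

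Between genotypes, every one of the 8 genes differed at day 0, by at most 1.56-fold. *SML1*, *HUG1*, *RNR4* and *RNR3* were higher in *tra1Q3* cells, and *RFX1*, *RNR1*, *RNR2* and *DUN1* were lower. The quasi-likelihood test of edgeR was used, and its p-values, here and below, were adjusted over all genes by the method of Benjamini and Hochberg, and a change is named as such at an adjusted p of 0.05 or less. The groups of all 8 genes did not overlap. Of all 6126 genes tested, 68.7% passed that threshold (35% higher and 33.7% lower), and in 71.5% the groups did not overlap. None of the 8 genes differed by a log2 value over 1, which 6.07% of all genes did (3.31% higher and 2.76% lower). In a single fit of all 12 libraries 4 of the 8 differences no longer passed, those of *RNR3* (adjusted p = 0.156), *RNR4* (0.0863), *HUG1* (0.122) and *DUN1* (0.28). The share of all genes that passed in that fit is not given here, so this loss cannot be read as particular to the 8 genes.

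At day 3, 5 of the 8 genes were higher in aged *tra1Q3* cells. *SML1* was 5.11-fold, *HUG1* 2.96-fold, *RNR4* 2.47-fold, *DUN1* 1.82-fold and *RFX1* 1.53-fold higher, while *RNR1* was 1.47-fold lower. *RNR2* and *RNR3* did not pass the test. These 6 of 8 stand beside 71.5% of all 6208 genes tested (35.1% higher and 36.4% lower), and the same 6 had groups that did not overlap, beside 77.2% of all genes. *SML1*, *HUG1* and *RNR4* were also over 1 on the log2 scale, beside 32% of all genes (16.4% higher and 15.6% lower). The median log2 value of the 8 genes was 0.74, and that of all genes tested was -0.02.

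With age, *RNR1* fell and *RNR3* rose in both genotypes. In *TRA1* cells *RNR2*, *RNR4*, *HUG1* and *DUN1* fell as well, so that 1 gene rose and 5 fell, 6 of 8 beside 81.3% of all 6247 genes tested (41.5% rose and 39.8% fell). The groups of these 6 did not overlap, beside 80.6% of all genes. Those of *HUG1* all but touched, at 2.554 CPM in the lowest young and 2.553 CPM in the highest aged library. In *tra1Q3* cells *SML1*, *RNR3* and *RFX1* rose and *RNR1* and *RNR2* fell, 5 of 8 genes beside 83% of all genes (40.9% rose and 42.1% fell). The groups of these 5 and of *DUN1* did not overlap, beside 89.7% of all genes. With the added threshold of 1 on the log2 scale, *RNR3*, *RNR1* and *DUN1* remained in *TRA1* cells, where 39.9% of all genes passed (20.1% rose and 19.8% fell), and *SML1* and *RNR1* in *tra1Q3* cells, where 46.1% did (22.7% and 23.4%). Since RNA came from whole cultures, fewer cells with a transcript and less of it per cell cannot be told apart in any of these comparisons. Counts are also relative to the whole library. A gene that rose or fell did so in its share of the counts, and amounts per cell are not known. The comparisons between genotypes and with age share libraries and are not independent of each other.

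**Figure D3:**
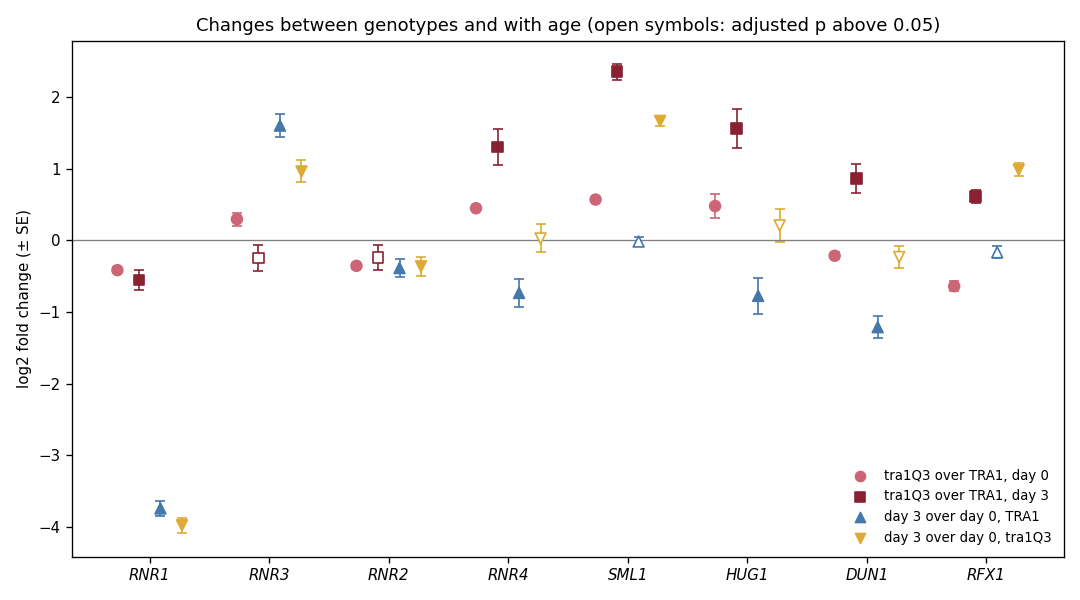
Log2 fold changes with their SE for the 8 genes between genotypes (circles, day 0, and squares, day 3, *tra1Q3* over *TRA1*) and with age (triangles pointing up, *TRA1*, and down, *tra1Q3*, day 3 over day 0), with open symbols where the adjusted p was above 0.05. The change of *RNR1* with age, -3.74 and -3.98, is far larger than any difference between genotypes, and the day 3 squares of *SML1*, *HUG1*, *RNR4*, *DUN1* and *RFX1* all lie above 0.

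*RNR1*, the main large subunit gene, had 275, 255 and 266 CPM in *TRA1* and 205, 188 and 203 CPM in *tra1Q3* cells at day 0 (replicates 1 to 3). At day 3 it had 17.01, 22.8 and 19.6 CPM in *TRA1* cells and 11.5, 12.6 and 13.6 CPM in replicates 2, 3 and 4 of *tra1Q3* cells. The *tra1Q3* libraries were below all *TRA1* libraries of the same day, and each aged library was below all young ones. *RNR1* was lower in *tra1Q3* cells by a log2 value of -0.42 (SE 0.0437, adjusted p = 1.36e-07) at day 0 and of -0.55 (SE 0.142, adjusted p = 0.00964) at day 3. With age it fell 13.4-fold in *TRA1* cells (log2 -3.74, SE 0.106, adjusted p = 3.27e-11) and 15.8-fold in *tra1Q3* cells (log2 -3.98, SE 0.109, adjusted p = 1.34e-11). The falls differed by 0.24 (SE 0.139, adjusted p = 0.151), which did not pass, but passed at 0.34 (adjusted p = 0.0289) without aged *TRA1* replicate 1, and was 0.11 (adjusted p = 0.342) without aged *TRA1* replicate 2. Without the latter the day 3 difference between genotypes was -0.45 (adjusted p = 0.00274).

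*RNR3*, the large subunit gene known for damage induction, had 12.4, 14.03 and 13.8 CPM in *TRA1* and 17.5, 15.9 and 15.8 CPM in *tra1Q3* cells at day 0. In aged cells it had 31.7, 53.1 and 37.4 CPM in *TRA1* and 32.3, 32.4 and 31.4 CPM in *tra1Q3*. The young *tra1Q3* libraries were all above the young *TRA1* ones (log2 0.30, SE 0.0928, adjusted p = 0.00875), and the aged groups overlapped (log2 -0.25, SE 0.181, adjusted p = 0.255). At day 0 the difference did not pass when libraries were scaled to their totals (0.21, adjusted p = 0.054). *RNR3* rose 3.04-fold with age in *TRA1* cells (log2 1.603, SE 0.156, adjusted p = 1.15e-06) and 1.95-fold in *tra1Q3* cells (log2 0.96, SE 0.155, adjusted p = 9.29e-05). Without aged *TRA1* replicate 2, the highest library, the rise in *TRA1* cells was 1.38 on the log2 scale and the day 3 value between genotypes was -0.0165 (adjusted p = 0.863).

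The order of the large subunit transcripts turned over with age. Within a library, *RNR1* had 17.8 to 21.8 times the counts of *RNR3* per coding length in young *TRA1* cells and 11.4 to 12.5 times in young *tra1Q3* cells. In aged cells the ratio was 0.420 to 0.525 in *TRA1* and 0.348 to 0.424 in *tra1Q3*. Every aged library had more *RNR3* than *RNR1* per coding length and every young one had less, and the aged genotypes overlapped. These ratios do not depend on how libraries are scaled.

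*RNR2*, a small subunit gene, had 406, 433 and 407 CPM in *TRA1* and 332, 313 and 328 CPM in *tra1Q3* cells at day 0. Aged *TRA1* cells had 349.5, 235 and 369.5 CPM, and aged *tra1Q3* cells 244, 255 and 258 CPM. At day 0 the *tra1Q3* libraries were the lower ones (log2 -0.36, SE 0.0422, adjusted p = 6.52e-07), while at day 3 replicate 2 of *TRA1* cells lay below all *tra1Q3* libraries and the other aged *TRA1* replicates above them (log2 -0.24, SE 0.174, adjusted p = 0.255). Without that replicate *RNR2* was lower in aged *tra1Q3* cells by -0.42 (adjusted p = 4.94e-05). It fell with age by similar values in *TRA1* (log2 -0.39, SE 0.132, adjusted p = 0.017) and *tra1Q3* cells (log2 -0.36, SE 0.132, adjusted p = 0.0229). Both falls were close to the threshold. With 1 of 3 other scalings the fall did not pass in *TRA1* cells (adjusted p = 0.0507), nor in *tra1Q3* cells with 1 of 3 (adjusted p = 0.0934). That in *TRA1* cells was -0.20 (adjusted p = 0.00265) without aged replicate 2 and did not pass without young replicate 2 (-0.34, adjusted p = 0.0581), and that in *tra1Q3* cells did not pass without young replicate 1 (-0.34, adjusted p = 0.0592) or 3 (-0.35, adjusted p = 0.0547), or aged replicate 2 (-0.33, adjusted p = 0.0694) or 3 (-0.37, adjusted p = 0.051).

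*RNR4*, the other small subunit gene, had 359, 394 and 359 CPM in *TRA1* and 513, 495 and 506 CPM in *tra1Q3* cells at day 0. It had 261, 136 and 271 CPM in aged *TRA1* and 563, 488 and 493 CPM in aged *tra1Q3* cells. The *tra1Q3* libraries were above all *TRA1* libraries at either day, by a log2 value of 0.45 (SE 0.0440, adjusted p = 5.60e-08) at day 0 and of 1.31 (SE 0.256, adjusted p = 0.00276) at day 3. Without aged *TRA1* replicate 2 the latter was 1.04 (adjusted p = 4.59e-08). With age *RNR4* fell in *TRA1* cells (log2 -0.73, SE 0.197, adjusted p = 0.00443, and -0.46 without that replicate). In *tra1Q3* cells the young and aged libraries overlapped (log2 0.03, SE 0.196, adjusted p = 0.902).

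*RNR4* and *RNR2* encode the partners of the small subunit, and the ratio of their transcripts differed between genotypes. The ratio of *RNR4* to *RNR2* per coding length within a library was 1.02 to 1.05 in young *TRA1* cells and 1.78 to 1.83 in young *tra1Q3* cells. It was 0.668 to 0.863 in aged *TRA1* and 2.21 to 2.67 in aged *tra1Q3* cells, so that no group overlapped another. On the bases *RNR2* shares with no other gene the group means were 0.839 and 1.47 at day 0 and 0.646 and 1.93 at day 3 (*TRA1* first), in the same order.

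**Figure D4:**
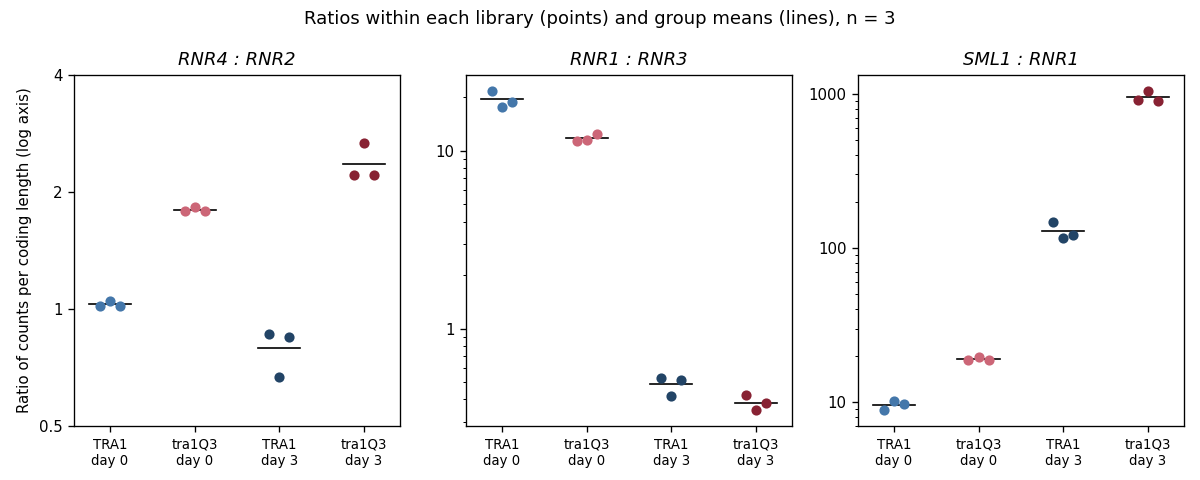
Ratios of counts per coding length within each library (points) with group means (lines), on log axes, for *RNR4* to *RNR2*, *RNR1* to *RNR3* and *SML1* to *RNR1*. The *RNR4* to *RNR2* ratio is higher in *tra1Q3* cells at both days, the *RNR1* to *RNR3* ratio lies above 1 in all young and below 1 in all aged libraries, and the *SML1* to *RNR1* ratio reaches 901 to 1047 in aged *tra1Q3* cells.

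*SML1*, whose small protein binds the large subunit and inhibits the enzyme, had 287.7, 307 and 305 CPM in *TRA1* and 451, 437 and 446 CPM in *tra1Q3* cells at day 0. Aged *TRA1* cells had 296, 311 and 282 CPM and aged *tra1Q3* cells 1419, 1344 and 1478 CPM. The young and aged *TRA1* libraries overlapped, and all *tra1Q3* libraries were higher, the aged ones by far. The difference between genotypes had a log2 value of 0.57 (SE 0.0405, adjusted p = 7.33e-10) at day 0 and of 2.35 (SE 0.110, adjusted p = 4.47e-06) at day 3. With age *SML1* rose 3.18-fold in *tra1Q3* cells (log2 1.67, SE 0.0695, adjusted p = 4.23e-10), with a log2 value of -0.02 (SE 0.0679, adjusted p = 0.83) in *TRA1* cells. This was the largest difference between genotypes among the 8 genes at day 3, and it was 2.38 without aged *TRA1* replicate 2.

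Set against its target, *SML1* had 8.85 to 10.2 times the counts of *RNR1* per coding length in young *TRA1* cells and 18.6 to 19.7 times in young *tra1Q3* cells. The ratio was 115 to 147 in aged *TRA1* and 901 to 1047 in aged *tra1Q3* cells. No groups overlapped. With age *RNR1* fell in both genotypes, and *SML1* rose in *tra1Q3* cells.

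*HUG1* encodes a small protein that also inhibits ribonucleotide reductase. It was the least counted of the 8 genes, with 31 to 138 counts per library. It had 3.099, 4.02 and 2.55 CPM in *TRA1* and 4.35, 4.05 and 5.08 CPM in *tra1Q3* cells at day 0, and 2.55, 1.23 and 1.82 CPM and 4.48, 5.16 and 5.97 CPM at day 3. At day 0 the groups only just did not overlap, and at day 3 all *tra1Q3* libraries were clearly above those of *TRA1* cells. The log2 value was 0.48 (SE 0.170, adjusted p = 0.0183) at day 0 and 1.57 (SE 0.274, adjusted p = 0.00159) at day 3, or 1.33 without aged *TRA1* replicate 2. The day 0 difference did not pass without *TRA1* replicate 1 (0.45, adjusted p = 0.052) or 3 (0.34, adjusted p = 0.101) or without *tra1Q3* replicate 3 (0.39, adjusted p = 0.0911). *HUG1* fell with age in *TRA1* cells (log2 -0.78, SE 0.252, adjusted p = 0.0133), which did not pass without young replicate 2 (-0.57, adjusted p = 0.0732) and was -0.54 (adjusted p = 0.0358) without aged replicate 2, and had a log2 value of 0.21 (SE 0.228, adjusted p = 0.403) in *tra1Q3* cells.

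*DUN1*, the checkpoint kinase gene, had 53.6, 54.3 and 49.7 CPM in *TRA1* and 46.4, 44.8 and 44.5 CPM in *tra1Q3* cells at day 0. At day 3 it had 24.1, 15.7 and 28.2 CPM in *TRA1* and 38.6, 40.4 and 36.5 CPM in *tra1Q3* cells. The *tra1Q3* libraries were below all *TRA1* libraries at day 0 and above them at day 3. The log2 values were -0.21 (SE 0.0520, adjusted p = 0.00136) and 0.86 (SE 0.207, adjusted p = 0.0072), the latter 0.65 (adjusted p = 2.34e-05) without aged *TRA1* replicate 2. *DUN1* fell 2.32-fold with age in *TRA1* cells (log2 -1.21, SE 0.156, adjusted p = 1.47e-05, and -0.997 without that replicate). In *tra1Q3* cells the value was -0.23 (SE 0.154, adjusted p = 0.177), and in a fit of the *tra1Q3* libraries alone it passed at -0.21 (adjusted p = 0.00316).

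*RFX1*, the gene of the repressor itself, had 39.0, 36.1 and 38.1 CPM in *TRA1* and 25.96, 25.2 and 21.3 CPM in *tra1Q3* cells at day 0, and 34.3, 36.2 and 30.4 CPM and 47.6, 47.7 and 48.5 CPM at day 3. The *tra1Q3* libraries were thus the lower ones at day 0 (log2 -0.64, SE 0.0718, adjusted p = 3.11e-07) and the higher ones at day 3 (log2 0.61, SE 0.0926, adjusted p = 7.68e-04). The day 3 difference was 0.31 (adjusted p = 0.0687) when libraries were scaled to their totals, which lowered the median of all genes to -0.31. *RFX1* rose 1.98-fold with age in *tra1Q3* cells (log2 0.99, SE 0.0869, adjusted p = 3.97e-07). In *TRA1* cells the value was -0.17 (SE 0.0854, adjusted p = 0.09), and it passed at -0.21 (adjusted p = 0.0222) without aged replicate 2.

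The age-genotype interaction score tests whether the change with age differed between genotypes, as the log2 change in *TRA1* cells minus that in *tra1Q3* cells. A negative score thus means that the log2 change with age was higher in *tra1Q3* cells than in *TRA1* cells. It does not compare the levels of aged cells, since the day 0 values also enter it. *SML1* had a score of -1.69 (SE 0.0966, adjusted p = 4.52e-08), *RFX1* of -1.15 (SE 0.122, adjusted p = 5.61e-06), *HUG1* of -0.98 (SE 0.340, adjusted p = 0.0221), *DUN1* of -0.98 (SE 0.219, adjusted p = 0.00179) and *RNR4* of -0.76 (SE 0.277, adjusted p = 0.0285). *RNR3* had a positive score of 0.64 (SE 0.218, adjusted p = 0.0206), and *RNR2* (-0.02, SE 0.186, adjusted p = 0.917) did not pass. These 6 of 8 stand beside 68.7% of all genes, the positive score beside 39% and the 5 negative scores beside 29.7%. *SML1* and *RFX1* were also beyond 1 on the log2 scale, which 31.5% of all genes were (17.9% above 1 and 13.6% below -1). The median score was -0.87 for the 8 genes and 0.15 for all genes tested.

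Some of these scores lay close to the threshold and no longer passed when a library was left out, with a size that changed little. Leaving out aged *TRA1* replicate 2 brought most of the scores nearer to 0 but ended no call, with -0.52 (adjusted p = 4.17e-05) for *RNR4*, -0.77 (adjusted p = 0.0216) for *HUG1* and -0.79 (adjusted p = 1.49e-06) for *DUN1*. That of *RNR3* was 0.39 (adjusted p = 0.00615) without aged *TRA1* replicate 2 and did not pass without young *TRA1* replicate 1 (0.58, adjusted p = 0.0509). That of *HUG1* did not pass without young *TRA1* replicate 2 (-0.81, adjusted p = 0.0623) or aged *tra1Q3* replicate 4 (-0.88, adjusted p = 0.0546). That of *RNR4* did not pass without young *TRA1* replicate 2 (-0.73, adjusted p = 0.0551), young *tra1Q3* replicate 2 (-0.75, adjusted p = 0.0554) or 3 (-0.76, adjusted p = 0.0516), or aged *tra1Q3* replicate 2 (-0.69, adjusted p = 0.0648). Transcripts of aged cells (*SIP18* and *MLS1*) were found in young *tra1Q3* replicates 2 and 3 at 0.857 to 1.04% of their level in aged *TRA1* cells, and at 0.0606 to 0.217% in the other young libraries. Aged *tra1Q3* cells had far less of them, at 73.7 CPM for *SIP18* and 84.4 CPM for *MLS1*, and young *tra1Q3* replicates 2 and 3 reached 48.8 to 56.8% of that level, against 3.45 to 11.5% in the other young libraries. The part of this in the scores was not tested. Without both replicates, which leaves 1 young *tra1Q3* library, the scores were 0.73 for *RNR3*, -0.74 for *RNR4* and -1.03 for *HUG1*. They no longer passed there, in a fit with fewer libraries for every gene.

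The wider pathway was followed in 6 lists with 44 genes in all. Their counts are to be read beside the shares of all genes that passed the same test, 35% higher and 33.7% lower at day 0, 35.1% higher and 36.4% lower at day 3, 41.5% up and 39.8% down with age in *TRA1* cells, and 40.9% up and 42.1% down in *tra1Q3* cells. Of 9 genes that regulate ribonucleotide reductase or *RNR* transcription, 4 were higher and 1 was lower in aged *tra1Q3* cells (median log2 0.23), beside 35.1% and 36.4% of all genes, and 2 were higher and 4 lower at day 0 (median -0.06), beside 35% and 33.7%. *DIF1*, whose protein brings the small subunit into the nucleus and is removed after Dun1 acts, had 26.8, 23.2 and 17.02 CPM in aged *TRA1* and 175, 160.4 and 172 CPM in aged *tra1Q3* cells. The groups were far apart (log2 3.02, SE 0.167, adjusted p = 7.60e-06), and the interaction score was -2.69 (SE 0.186, adjusted p = 1.85e-07). *IXR1*, of a DNA-binding protein required for normal *RNR1* expression, was at 155 to 222 CPM in aged *TRA1* and 625 to 673 CPM in aged *tra1Q3* cells (log2 1.90, adjusted p = 2.72e-05). *CYC8*, of the corepressor that Rfx1 recruits, was at 98.9 to 104 and 286 to 305 CPM (log2 1.66, adjusted p = 5.07e-06). *TUP1*, of the same corepressor, had 194.7 to 222.5 CPM in aged *TRA1* and 216.7 to 243.3 CPM in aged *tra1Q3* cells, and these groups overlapped. *MBP1*, of a subunit of MBF, went the other way, with 39.6 to 54.7 CPM in aged *TRA1* and 23.8 to 24.1 CPM in aged *tra1Q3* cells. At day 0 the leading changes of this list were lower values of *WTM2* (-1.17), of *WTM1* (-0.42), whose protein holds the small subunit in the nucleus, and of *SWI6* (-0.24), a subunit of MBF.

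Of 14 checkpoint genes, 3 were higher and 6 lower in aged *tra1Q3* cells (median log2 -0.0034), 9 in all beside 71.5% of all genes. At day 0, 3 were higher and none lower (median 0.06), beside 68.7% in either direction. The largest day 3 values were those of *RAD24*, which helps load the checkpoint clamp (log2 -1.12, adjusted p = 7.07e-05), *CSM3*, of the replication fork (log2 -0.96, adjusted p = 4.85e-04), and *RAD53*, the kinase upstream of Dun1 (log2 -0.87, adjusted p = 1.21e-04). *RAD53* had 38.3 to 43.0 CPM in aged *TRA1* and 20.6 to 21.6 CPM in aged *tra1Q3* cells. *RAD24* and *CSM3*, with *MEC1*, also had the largest interaction scores of the list, at 1.49, 1.13 and 1.04. With age 10 checkpoint genes rose and 2 fell in *TRA1* cells, beside 81.3% of all genes in either direction, and 5 rose and 5 fell in *tra1Q3* cells, beside 83%. *MEC3*, of the checkpoint clamp, rose in both (1.07 and 1.31).

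Among 5 repair genes known for induction by DNA damage, 1 was higher and 1 was lower in aged *tra1Q3* cells. The recombination gene *RAD54* was higher (log2 1.19, adjusted p = 7.41e-04) and the nuclease gene *DIN7* was lower (-1.79, adjusted p = 0.00229). *DIN7* had 68.4, 153 and 61.7 CPM in aged *TRA1* cells, with replicate 2 the highest, and 23.8 to 27.5 CPM in aged *tra1Q3* cells, and the difference was -1.27 without that replicate. With age 3 genes of the list rose and 1 fell in *TRA1* cells and 2 rose and 1 fell in *tra1Q3* cells, with *MAG1*, a DNA glycosylase gene, up by 2.22 and 2.67 on the log2 scale.

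Of 8 replication genes expressed at the start of S phase, as *RNR1* is, 1 was higher and 6 were lower in *tra1Q3* cells at day 0 (median log2 -0.38), beside 35% and 33.7% of all genes, led by the cyclin gene *CLB6* (-1.17) and the sliding clamp gene *POL30* (-0.54). At day 3, 2 were higher and 4 lower, beside 35.1% and 36.4% of all genes. *CDC21*, of thymidylate synthase, had 26.99 to 32.1 CPM in aged *TRA1* and 6.48 to 6.82 CPM in aged *tra1Q3* cells (log2 -2.04, SE 0.115, adjusted p = 7.99e-06). With age 2 of the 8 rose and 5 fell in *TRA1* cells (median log2 -0.33), and 1 rose and 5 fell in *tra1Q3* cells (median -0.64). *POL30* fell by 2.14, *POL1*, of a replicative DNA polymerase, by 1.15 and *CDC21* by 1.02 in *TRA1* cells on the log2 scale, and by 1.61, 0.99 and 2.84 in *tra1Q3* cells. For comparison, *RNR1* changed by -3.74 and -3.98.

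Of 4 further genes of deoxyribonucleotide metabolism, *DUT1*, which removes dUTP, was higher in aged *tra1Q3* cells (log2 1.45, adjusted p = 4.07e-05), and the other 3 did not pass. *DCD1*, of dCMP deaminase, fell in both genotypes with age (-2.80 and -3.05). The rise of the thymidylate kinase gene *CDC8* in *TRA1* cells (log2 1.69, adjusted p = 0.0011) came with 189 CPM in replicate 2 against 60.2 and 56.2 CPM in the other aged *TRA1* libraries, and was 0.90 without replicate 2. Of 4 genes that deliver iron to the small subunit, *DRE2* was higher (1.15, adjusted p = 2.06e-04) and its partner *TAH18* lower (-1.43, adjusted p = 8.08e-05) in aged *tra1Q3* cells, with *GRX4* lower too (-0.69, adjusted p = 0.00238). At day 0 *DRE2* (-0.36) and *TAH18* (-0.39) were lower and the other 2 were higher, *GRX4* by 0.40 (adjusted p = 2.10e-06).

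**Figure D5:**
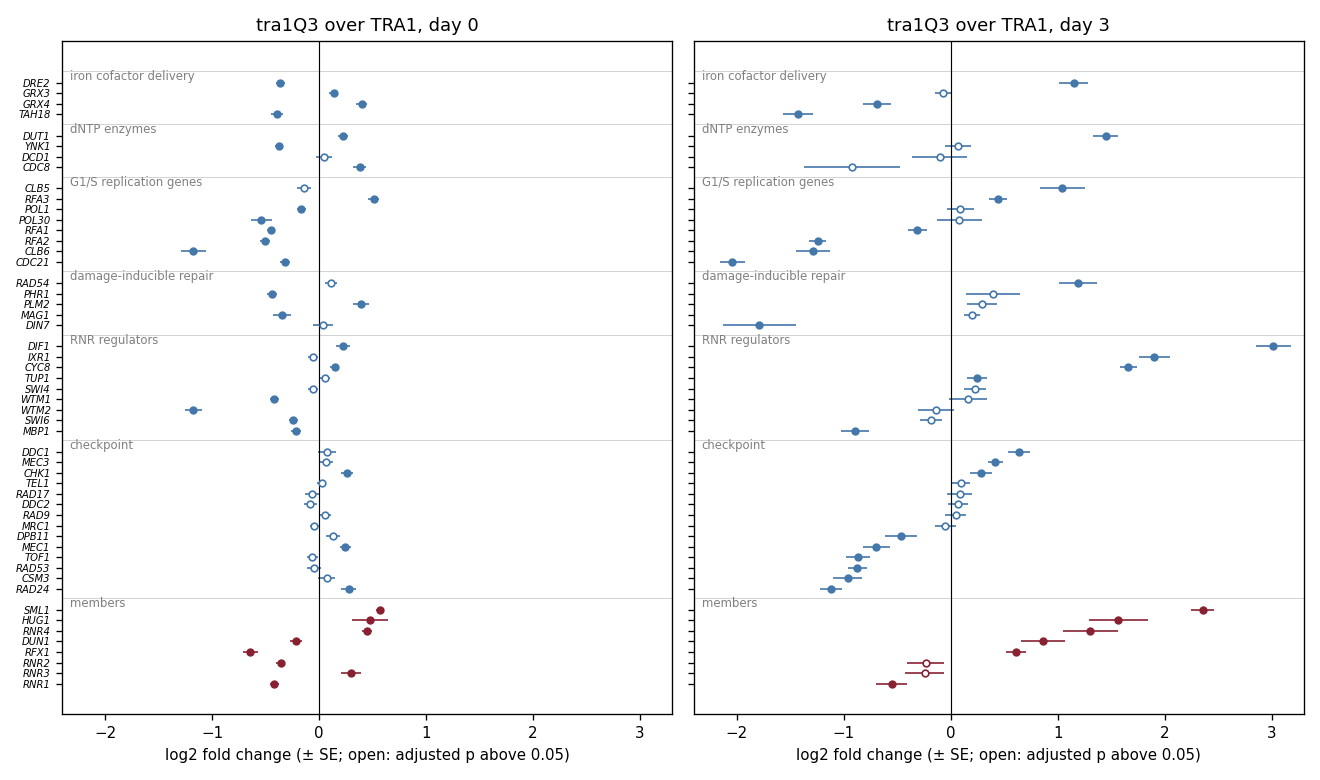
Log2 fold changes of *tra1Q3* over *TRA1* cells with SE for the 8 genes (red) and the 44 genes of the 6 lists (blue), at day 0 (left) and day 3 (right), with open symbols where the adjusted p was above 0.05. Values spread wider at day 3, from 3.02 for *DIF1* to -2.04 for *CDC21*.

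Genes with the most similar profile over the 12 libraries were found as those with the smallest root mean square (RMS) difference of log2 CPM, each centered on its mean, among 5440 other genes. For *RNR1* these were the ribosomal protein genes *RPS20*, *RPS2* and *RPS31*, with a difference of 0.207 to 0.218, where the own RMS of *RNR1* was 1.91. For *SML1* (own RMS 0.919) *RAD6*, of a ubiquitin-conjugating enzyme, was nearest at 0.135, followed by *CTF3* and *YLR036C*. *YOR131C* and *TVP38* were among the nearest 3 of both *RNR4* and *HUG1*, beside *TEF2* and *CUE4*. *RNR2* was nearest to *KTR6*, *RVS167* and *RIM20*, *RNR3* to *GRX6*, *PET130* and *IES2*, *DUN1* to *ISC1*, *ORA1* and *DOA1*, and *RFX1* to *ADE8*, *SSN8* and *FKH2*. The difference of the nearest gene was 0.0748 for *RNR2*, 0.136 for *RNR3*, 0.150 for *RNR4*, 0.170 for *HUG1*, 0.0995 for *DUN1* and 0.120 for *RFX1*. Their own RMS was 0.295, 0.645, 0.564, 0.476, 0.492 and 0.357, in the same order. A small difference thus partly reflects a profile that varied little. The pseudocount of 1 also narrows the profile of *HUG1*, which had few counts.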

How the data were processed

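The deposited table holds raw counts per coding sequence, made by the authors from paired reads that were trimmed with Trimmomatic, aligned to S288C R64 with STAR 2.5.4b and counted with featureCounts 1.6.0, without a strand option. Each library has deposited counts of read pairs and of single reads that lost their mate (12.5 to 18.1% of counts), and these were added. One unnamed entry with 0.0851% of counts was left out. Totals of 20662125 to 28079682 counts per library limit precision mainly for *HUG1*. Of 6691 genes, 6008 had their locus tag in RefSeq, and 6003 had the start and end given there.

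Counts were tested with edgeR 4.0.16 (glmQLFit and glmQLFTest) in R 4.3.3, with TMM normalization, for genes that reached 10 counts in 3 or more libraries. Genotypes were compared in the 6 libraries of a day, and changes with age and the interaction in a fit of all 12 libraries. P-values were adjusted over all genes. On simulated data at the real depths, at least 91 of 100 genes changed by 1 and all 100 changed by 2 on the log2 scale were recovered in the genotype and interaction tests. In these tests edgeR also called 9 to 12 unchanged genes. The changed genes had a mean above 10 CPM, so the recovery does not cover *HUG1*. Simulated replicates were independent draws, so a library that deviates as a whole, as aged *TRA1* replicate 2 did, was not reproduced. Profiles for the search of similar genes used a pseudocount of 1 and genes with a mean of at least 10 CPM. Tables and figures used Python 3.11.15 with numpy 2.4.6, pandas 2.3.3 and matplotlib 3.10.9.

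Alternatives were DESeq2 1.42.0, other scalings, no filter on low counts, read pairs alone, other sets of libraries in a fit, replicate number as a block, and each library left out. The 8 genes and the lists were chosen with earlier results of these data known. From each list, up to 3 genes with the largest log2 value among those that passed were named per comparison, beside all 8 genes and *TRA1*, and not all of these are described. Values of *RAD53*, *CDC8*, *DIN7*, *TUP1* and *MBP1* by library were chosen for print after they were seen. One gene of the repair list is not reported here, and its list was counted without it.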

Additional observations from a re-analysis of the deposited data

Results flagged for a closer look

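The change with age differed between genotypes for 24 named genes of the set and its lists and for *TRA1* itself, by the interaction test of edgeR with Benjamini-Hochberg adjustment over all genes. Among the 8 genes the scores were 0.64 for *RNR3*, -0.76 for *RNR4*, -0.98 for *HUG1*, -1.69 for *SML1*, -0.98 for *DUN1* and -1.15 for *RFX1*. In the lists they were 1.04 for *MEC1*, 1.49 for *RAD24*, 1.13 for *CSM3*, -2.69 for *DIF1*, -1.86 for *IXR1*, -1.41 for *CYC8*, -0.98 for *RAD54*, 1.93 for *DIN7*, -0.74 for *PHR1*, 1.82 for *CDC21*, 0.83 for *RFA2*, -1.09 for *CLB5*, -1.13 for *DUT1*, 1.40 for *CDC8*, -0.34 for *YNK1*, -1.41 for *DRE2*, 1.13 for *TAH18* and 1.19 for *GRX4*. The score of *TRA1* was -1.11. Positive and negative scores stood side by side among the named genes of the repair, replication, nucleotide and iron lists, and 68.7% of all genes tested passed this test. Without aged *TRA1* replicate 2 the scores of *CDC8* and *DIN7* were 0.59 and 1.38. Some scores close to the threshold did not pass when a library was left out. That of *PHR1* was lost without young *TRA1* replicate 1 or 2, young *tra1Q3* replicate 3, aged *TRA1* replicate 1 or aged *tra1Q3* replicate 2 or 3 (-0.68 to -0.75). That of *CDC8* was lost without young *TRA1* replicate 1 or 3, young *tra1Q3* replicate 3 or aged *tra1Q3* replicate 2, 3 or 4 (1.35 to 1.43). That of *YNK1* was lost without young *TRA1* replicate 2 or 3, young *tra1Q3* replicate 1 or aged *tra1Q3* replicate 2 or 4 (-0.31 to -0.34).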

How the results depend on the processing

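Of 624 alternative values of the 8 genes, 576 kept their direction and their side of the threshold. In 1 fit of all libraries 4 of the 8 genes differed between genotypes at day 0, not 8, with no share of all genes in that fit to set beside it. With the threshold of 1 on the log2 scale, 4 genes and not 2 passed with age in *tra1Q3* cells with library totals, upper quartile scaling or without 1 library (2 to 4), and 4 and not 2 in the interaction with DESeq2, its size factors, upper quartile scaling or without 1 library (2 to 4). Of all genes, 2879 (46.1%) passed with age in *tra1Q3* cells in the main fit. Library totals gave 2894, the upper quartile 2901, and a left-out library 2844 to 2885. In the interaction 1968 (31.5%) passed in the main fit. DESeq2 gave 1950, its size factors 1942, the upper quartile 1953, and a left-out library 1926 to 1994. Without young *tra1Q3* replicates 2 and 3 the scores were 0.73 for *RNR3*, -0.74 for *RNR4* and -1.03 for *HUG1*, which no longer passed in that smaller fit. Values near 0 that turned their sign were *SML1* with age in *TRA1* cells (0.16 with library totals, 0.0735 with the upper quartile, and -0.0456 to 0.0198 with a library left out), *RFX1* there (0.0127 with library totals), *RNR4* with age in *tra1Q3* cells (-0.0384 to 0.0673 with a library left out) and the score of *RNR2* (0.0705 with library totals, 0.0105 without young *tra1Q3* replicates 2 and 3, and -0.1446 to 0.1421 with a library left out). None of these passed the test. Counted on its free bases, *RNR2* had 424.9, 332 and 258 CPM per kilobase in young *TRA1*, young *tra1Q3* and aged *tra1Q3* cells, its ratio to *RNR1* was 4.28, 4.46 and 54.9 there, and that of *RNR4* to *RNR2* was 0.839, 1.47, 0.646 and 1.93 in the 4 groups. Library totals moved the median of all genes from -0.02 to -0.31 between genotypes at day 3, from 0.03 to 0.21 with age in *TRA1* cells and from 0.15 to 0.26 in the interaction. With the added threshold of 1 on the log2 scale, genes higher and lower at day 3 went from 1018 and 968 to 702 and 1463. The causes were not tested.

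The labels do not state what a shared replicate number marks. Deviations of same-numbered libraries from their group means correlated by -0.11 to 0.02, and those of libraries with unlike numbers by -0.07 to 0.10. Deviations within a group cancel out, so these ranges are tied to each other. Among aged libraries, number 1 exists for *TRA1* cells alone and number 4 for *tra1Q3* cells alone. A day 3 fit with replicate number as a block therefore rests on numbers 2 and 3, with little left to measure spread. One of these libraries is the aged *TRA1* replicate 2 that stood apart. With replicate number as a block 8 of the 8 genes differed at day 0, 6 at day 3, 6 and 4 with age in *TRA1* and *tra1Q3* cells and 5 in the interaction. The fall of *RNR2* with age in *tra1Q3* cells (adjusted p = 0.0709) and the score of *HUG1* (0.0668) were lost. The scores of *PHR1* (0.0514), *CDC8* (0.0534) and *YNK1* (0.0988) were lost too. The counts of the 8 genes rest on adjusted p alone. By that rule the main fits passed 68.7% of all genes at day 0 and 71.5% at day 3. With age in *TRA1* and *tra1Q3* cells they passed 81.3% and 83%, and in the interaction 68.7%. Such shares with the block are not given here. With the added threshold of 1 on the log2 scale, the block called 376 of all genes at day 0 and 1995 at day 3. It called 2489 and 2859 with age, and 1936 in the interaction.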
